A study of Mus musculus with 6 samples.

Results

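The platelet-derived growth factor (PDGF) family was followed through RNA sequencing of mouse muscle cells with and without lenvatinib. Its 7 genes, taken by name from the 56792 gene rows of the deposited count table, are the receptor kinase genes Pdgfra and Pdgfrb, the receptor-like gene Pdgfrl and the ligand genes Pdgfa, Pdgfb, Pdgfc and Pdgfd. All 7 had enough reads for a test and stand among the 14989 rows tested. The cells were C2C12, an established mouse myoblast line described as wild type, grown in 10% fetal calf serum and then kept in 2% horse serum for 4 days of differentiation. The growth medium also held penicillin and streptomycin. In the differentiation medium 3 samples were left untreated and 3 received 1 µM lenvatinib, an oral drug that blocks the VEGF and FGF receptor kinases, PDGF receptor alpha, KIT and RET. The labels do not say whether the 3 libraries of a group came from separate cultures, whether untreated cells received solvent, or when the drug was added. The p-values therefore set the group difference only against the scatter among these libraries within a group, and that scatter could be technical.

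PDGFs are secreted dimers. The A and B chains are cut into their active form inside the cell, whereas the C and D chains leave the cell with a CUB domain that proteases outside it must remove. The dimers pair the receptor kinases alpha and beta, which then phosphorylate each other and recruit the relays of the RAS, phosphoinositide 3-kinase and phospholipase C pathways. In skeletal muscle the alpha receptor marks fibro-adipogenic progenitors, the beta receptor marks pericytes and other mesenchymal cells, and PDGF signals are known to keep myoblasts dividing.

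Of the 7 members 4 were higher and 2 were lower with lenvatinib at an adjusted p under 0.05, and Pdgfd did not pass. Pdgfrl, Pdgfb, Pdgfc and Pdgfrb rose, by 1.53-fold, 1.4-fold, 1.4-fold and 1.12-fold. Pdgfra, a named target of the drug, fell 1.33-fold and Pdgfa 1.11-fold. Across all rows tested 28.2% were called, 13.3% higher and 14.9% lower; a call in either direction was thus common. The groups did not overlap in 6 of the 7 members, beside 40.1% of all rows tested. The median log2 fold change was 0.16 over the members and 0.00 over all rows (0.0027). Levels are given as CPM, the usual count of a gene relative to its library total, here after scaling with TMM factors. Each change is the log2 ratio of treated to untreated, ± its standard error, from the quasi-likelihood test of edgeR, and p-values carry the Benjamini-Hochberg adjustment across every row tested.

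**Figure D1:**
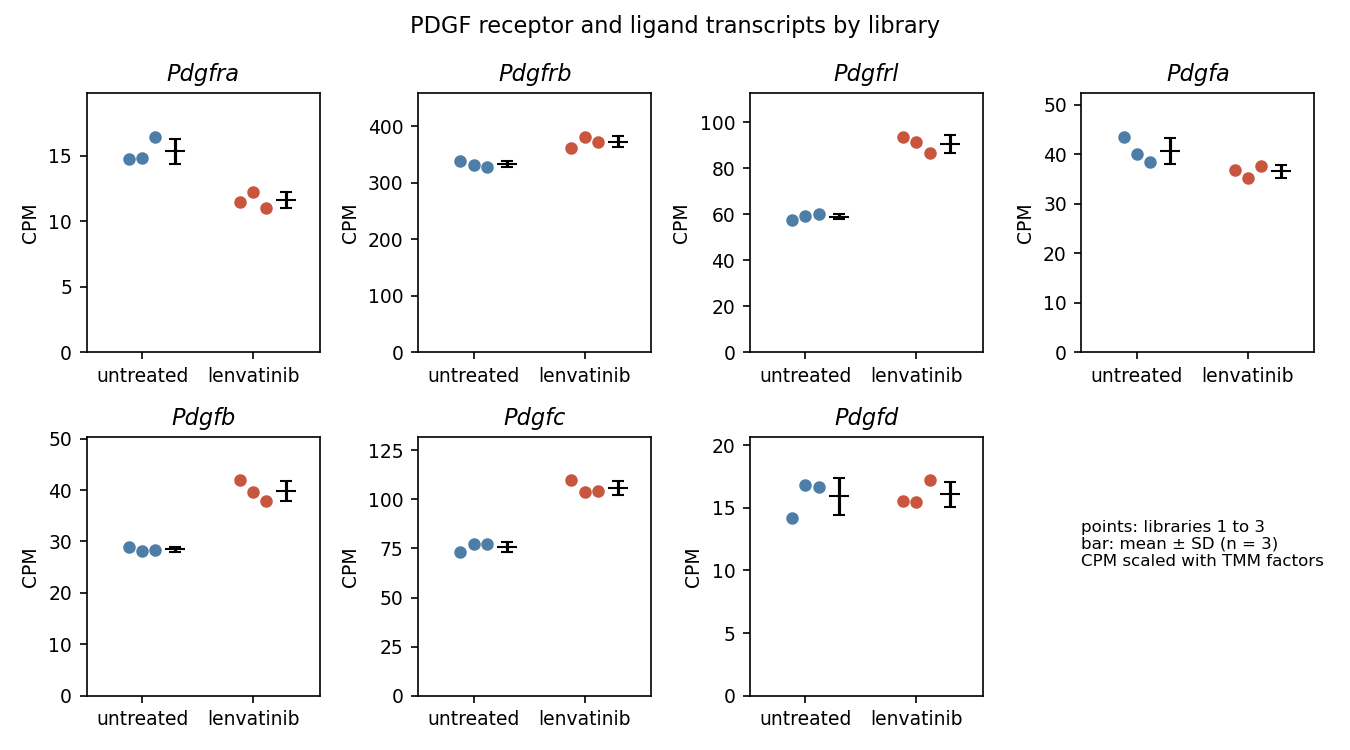
CPM of each PDGF member (linear axes from 0) in the 3 untreated and 3 lenvatinib libraries; each point is a library, and the bar beside it is the mean ± SD (n = 3). Every lenvatinib library lies below every untreated library for Pdgfra and Pdgfa and above it for Pdgfrb, Pdgfrl, Pdgfb and Pdgfc, and the groups overlap for Pdgfd.

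The table held 24566768 to 32406563 counts per library, and the TMM factors ran from 0.9956 to 1.0074. All 11 skeletal muscle markers were at or above 5 CPM, led by Myh3, Des and Tnnt3; 6 rose, 2 fell, and their summed level was 13060 to 13470 CPM in untreated and 13670 to 13720 CPM in lenvatinib libraries. Of 12 markers of fibro-adipogenic progenitors and fibroblasts 6 reached 5 CPM, led by the collagen genes Col3a1 and Col1a1 and by Dcn. Another 4 were below 1 CPM: Dpp4, Lum and Col15a1, and Tcf21, which was listed at 0. The sum of all 12 was 3203 to 3291 CPM without and 3309 to 3383 CPM with the drug. Of these markers 3 rose (Ly6a, Col1a1 and Cd248) and Osr1 fell. Of 9 mural cell markers 4 reached 5 CPM, Kcnj8 and Higd1b were at 0 in all 6 libraries, and Rgs5 and Myh11 stayed below 1 CPM. The mural sum was 169 to 174 CPM in untreated and 139.7 to 152 CPM in lenvatinib libraries in which Notch3 fell from 75.9 to 46.3 and Anpep from 53.02 to 47.9 while Cspg4 did not pass. Mcam, a mural and endothelial adhesion protein singled out after its values were seen, rose from 1.47 to 6.2 CPM, and Abcc9 rose by 0.41 on the log2 scale. All 7 endothelial and all 4 adipocyte markers, and 5 of 6 myeloid markers, had group means below 1 CPM; single libraries passed it for Tek (1.19 CPM in the second lenvatinib library) and Cd68 (1.04 CPM in the third untreated one). The part of any such cells in the values below was not tested. In a bulk sample, fewer cells that carry a transcript and less of it in each cell cannot be told apart.

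Pdgfra, the receptor kinase that binds all PDGF chains except D and a named target of lenvatinib, had the lowest level per length of the family. Its row (ENSMUSG00000029231, chromosome 5, 75312953 to 75358876, plus strand, in the table's own coordinates) held 14.8, 14.9 and 16.5 CPM in the untreated and 11.5, 12.3 and 11.1 CPM in the lenvatinib libraries. The highest lenvatinib library stayed under the lowest untreated one. The fall was -0.41 ± 0.08, with a 95% interval from -0.57 to -0.25 and an adjusted p of 8.11e-05. These levels rest on 379 to 474 untreated and 284 to 358 lenvatinib counts. Counting error alone gives a coefficient of variation of 4.93% and 5.67% there, and the observed one was 6.25% and 5.32%. In all, 13.7% of rows tested had a larger change in either direction than Pdgfra.

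The promoters of the alpha receptor gene, which fell, and of the ligand gene Pdgfc, which rose, are shown as members called in opposite directions. Both are the 250 bases before an annotated start in RefSeq on GRCm38.p6, on the plus strand. The first lies at chr5:75152001-75152250 and the second at chr3:81036166-81036415, and neither overlaps an exon of GENCODE M21. Capitals mark matches to any of 6 motifs searched on both strands, a choice made after the expression values were known. These were the GC box GGGCGG, the TATA box TATAAA, the CCAAT box, the E-box CANNTG, the AP-1 site TGANTCA and the CArG box of serum response factor.
Pdgfra: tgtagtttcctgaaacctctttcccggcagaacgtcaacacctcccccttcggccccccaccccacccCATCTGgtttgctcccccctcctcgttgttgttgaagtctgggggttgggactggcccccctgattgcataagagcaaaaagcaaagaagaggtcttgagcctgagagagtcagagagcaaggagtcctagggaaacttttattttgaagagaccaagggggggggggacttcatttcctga
Pdgfc: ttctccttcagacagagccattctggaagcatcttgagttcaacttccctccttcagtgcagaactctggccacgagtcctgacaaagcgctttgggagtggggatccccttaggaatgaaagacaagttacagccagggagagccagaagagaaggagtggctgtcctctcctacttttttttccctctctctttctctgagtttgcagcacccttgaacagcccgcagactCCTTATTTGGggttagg
The Pdgfra window held 1 E-box, a motif found in 66.2% of 32851 promoter windows of the same length. The Pdgfc window held 1 CArG box starting 17 bases before the start, a motif found in 1.47% of those windows. Neither window held any other match. Over all windows the remaining motifs occur in 32.7% (GC box), 12.4% (TATA box), 33.9% (CCAAT box) and 6.75% (AP-1 site). Windows of Pdgfa and Pdgfd, not printed, were searched for the same 6 motifs. Pdgfd held 1 TATA box, and the Pdgfa windows held 1 and 2 GC boxes. The share of 1.47% is per window and does not account for the number of windows and motifs searched. The GC content was 54.4% for Pdgfra and 50.8% for Pdgfc, beside a median of 52.4%. A match describes these letters only.

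Pdgfrb, the receptor kinase for the B and D chains, (ENSMUSG00000024620) was the most abundant member. It was at 338, 332 and 328 CPM in untreated and 362, 381 and 372 CPM in lenvatinib libraries, from 8459 to 12054 counts each. The groups did not overlap, although the step was small. The change was 0.16 ± 0.03 with a 95% interval from 0.11 to 0.22 (adjusted p = 1.02e-05), opposite in sign to that of Pdgfra. In 38.7% of rows tested the change was larger.

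Per kilobase of the deposited feature length, Pdgfrb exceeded Pdgfra 39.2-fold, 38.2-fold and 34.1-fold in the untreated libraries and 53.96-fold, 53.2-fold and 57.7-fold in the lenvatinib libraries. Pdgfra made up 2.63 ± 0.194% (SD, n = 3) of the reads per length of the pair without the drug and 1.79 ± 0.0744% (SD, n = 3) with it. The log2 ratio of Pdgfra to Pdgfrb counts, which does not depend on library scaling, was -4.44 ± 0.11 in untreated and -5.00 ± 0.06 in lenvatinib libraries (SD, n = 3), a difference of -0.57. All 3 lenvatinib values lay below the untreated ones, and the exact two-sided permutation test gave p = 0.1, the smallest that 3 against 3 libraries allow. The alpha receptor was thus the smaller part of the pair in each library, and smaller still in each treated one.

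Pdgfrl encodes a secreted protein with immunoglobulin-like domains related to the PDGF receptors but without a kinase domain. Its levels were 57.6, 59.3 and 59.9 CPM in untreated and 93.7, 91.3 and 86.4 CPM in lenvatinib libraries (ENSMUSG00000031595, chromosome 8, 41379249 to 41443822, plus strand, in the table's coordinates). The groups stood far apart against a spread of 1.17 and 3.71 CPM (SD, n = 3). The rise of 0.62 ± 0.04 (95% interval 0.54 to 0.69, adjusted p = 1.12e-16) was the largest of the family, and Pdgfrl ranked 109 by p among all rows tested. A larger change in either direction was seen in 7.25% of rows.

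**Figure D2:**
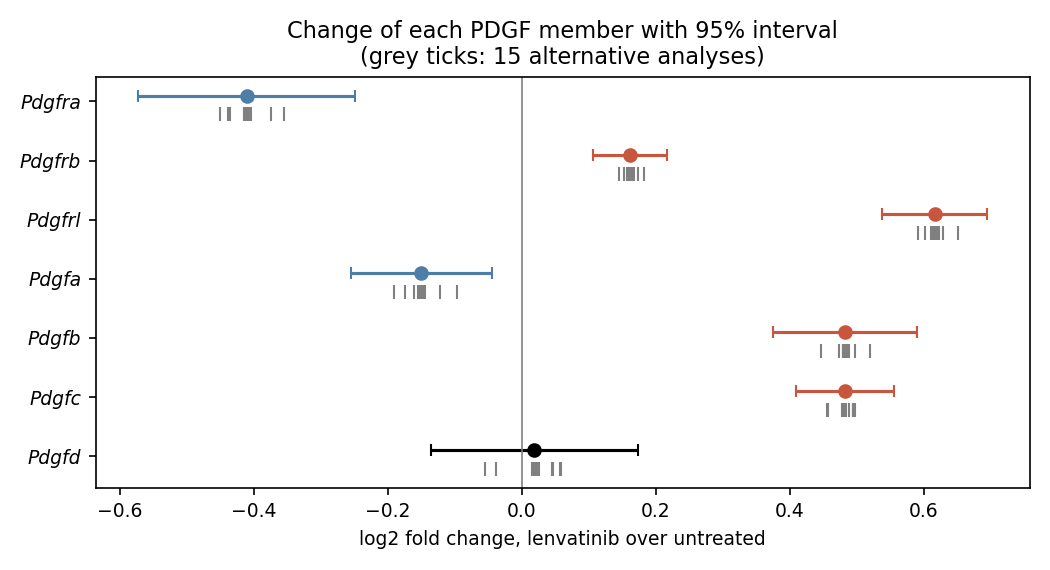
Log2 fold change of each PDGF member (x axis; coloured point, red for higher, blue for lower, black for not past the threshold) with its 95% interval; each grey tick below is 1 of 15 alternative analyses. Pdgfrl at 0.62 is farthest to the right and Pdgfra at -0.41 farthest to the left, and only the ticks of Pdgfd fall on both sides of 0.

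Among the ligands, Pdgfc rose most clearly. The C chain signals through the alpha receptor once its CUB domain is removed. The row (ENSMUSG00000028019, chromosome 3, 80943723 to 81121347, plus strand, in the table's coordinates) held 73.03, 77.2 and 77.01 CPM in untreated and 109.8, 103.6 and 104 CPM in lenvatinib libraries. Every treated library was above every untreated one, and the rise was 0.48 ± 0.04 (95% interval 0.41 to 0.56, adjusted p = 3.00e-14). Its promoter is the one printed above with the CArG box, and any part of that motif in the rise was not tested.

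Pdgfb encodes the B chain, which binds both receptors and is the main ligand of the beta receptor. It was at 28.99, 28.1 and 28.3 CPM in untreated and 41.9, 39.7 and 37.97 CPM in lenvatinib libraries (ENSMUSG00000000489, chromosome 15, 79880075 to 79899178, minus strand, in the table's coordinates). The lowest treated library was far above the highest untreated one. The rise was close in size to that of Pdgfc, at 0.48 ± 0.05 (95% interval 0.38 to 0.59, adjusted p = 1.02e-09).

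Pdgfa encodes the A chain, a ligand of the alpha receptor only. Its levels were 43.6, 40.05 and 38.4 CPM in untreated and 36.9, 35.2 and 37.7 CPM in lenvatinib libraries (ENSMUSG00000025856, chromosome 5, 138961769 to 138983125, minus strand, in the table's coordinates). The groups did not overlap, but the lowest untreated and the highest lenvatinib library were less than 1 CPM apart. The fall was -0.15 ± 0.05 (95% interval -0.26 to -0.05, adjusted p = 0.0257). It no longer passed without the first untreated library (-0.10, adjusted p = 0.232), without the second lenvatinib library (-0.12, adjusted p = 0.123) or with DESeq2 (-0.15, adjusted p = 0.0778), so that the count of lower members went from 2 to 1; over the 15 alternatives its adjusted p ranged from 0.0102 to 0.232. The table also lists the antisense gene 6330403L08Rik across part of this gene. In GENCODE M21 26.1% of the exonic bases of Pdgfa lie within its exon, and reads there cannot be assigned without strand. That row held 21.7 ± 0.904 CPM without and 23.99 ± 2.01 CPM with lenvatinib (SD, n = 3; 0.14 ± 0.06, adjusted p = 0.11). No source used here gives the strand setting of the counting, and the part of the antisense transcript in the value of Pdgfa was not tested. No row overlapping another member held more than 3 counts in a library.

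Pdgfd encodes the D chain, a ligand of the beta receptor. It was at 14.2, 16.8 and 16.7 CPM in untreated and 15.5, 15.5 and 17.2 CPM in lenvatinib libraries (ENSMUSG00000032006, chromosome 9, 6168584 to 6378850, plus strand, in the table's coordinates). The groups overlapped. The change was 0.02 ± 0.08 (adjusted p = 0.895), and its 95% interval from -0.14 to 0.17 does not reach the size of the rises of Pdgfb and Pdgfc. It turned to -0.05 without the first untreated library and to -0.04 without the third lenvatinib library.

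Ordered by level per kilobase, the untreated libraries ran from Pdgfrb (56.8 ± 0.87 CPM per kilobase) through Pdgfrl (18.9 ± 0.373), Pdgfa (11.6 ± 0.761), Pdgfc (10.1 ± 0.315), Pdgfb (6.82 ± 0.113) and Pdgfd (3.69 ± 0.34) to Pdgfra (1.53 ± 0.0959). With lenvatinib Pdgfc (14.2 ± 0.462 CPM per kilobase) stood above Pdgfa (10.5 ± 0.369) and Pdgfb came up to 9.55 ± 0.477, while the other places were the same. The closest neighbours were Pdgfa and Pdgfb with lenvatinib, at 10.07 to 10.8 and 9.097 to 10.05 CPM per kilobase, which did not overlap but were nearly in contact. The feature length counts all annotated exons of a gene, so a gene with long unused exons appears lower on this scale.

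The ligand transcripts together rose from 32.3 ± 0.299 to 37.9 ± 0.94 CPM per kilobase (SD, n = 3), and their make-up shifted. Pdgfa was 38.4, 35.4 and 34.4% of the ligand reads per kilobase in the untreated libraries and 27.1, 27.2 and 28.6% in the lenvatinib libraries. Pdgfc went the other way, from 30.1, 31.9 and 32.3% to 37.8, 37.5 and 36.8%, and Pdgfb from 21.4, 20.8 and 21.2% to 25.8, 25.7 and 24.1%. Per kilobase the leading ligand transcript was Pdgfa in each untreated and Pdgfc in each lenvatinib library. That switch depends on dividing by length: in CPM without length, Pdgfc was above Pdgfa in all 6 libraries. The shares of these 3 ligands did not overlap between groups, and each gave p = 0.1 in the exact two-sided permutation test, the smallest possible here (0.133 after adjustment over the 4 shares). Pdgfd was 11.4 ± 1.11% and 9.83 ± 0.663% (SD, n = 3), with overlapping groups (exact permutation p = 0.2, adjusted 0.2). Of raw counts without length, the difference in share was 2.38 percentage points for Pdgfb in place of 4.06, and the groups of Pdgfd no longer overlapped (-1.78 points, exact permutation p = 0.1). Shares of 1 total are not independent of each other.

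**Figure D3:**
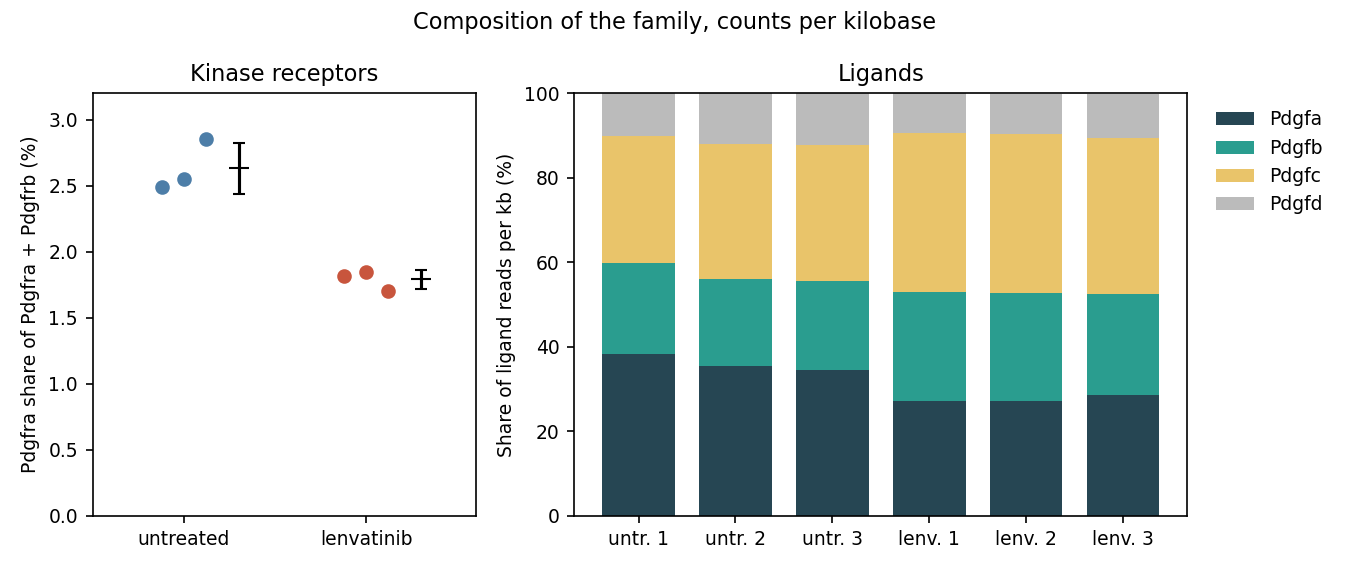
Left, share of Pdgfra in the summed Pdgfra and Pdgfrb reads per kilobase (percent, axis from 0; points are libraries, bar mean ± SD, n = 3); right, share of each ligand gene in the ligand reads per kilobase of each library (percent, stacked to 100). The Pdgfra share is 2.63% without and 1.79% with lenvatinib, and the yellow Pdgfc part exceeds the dark Pdgfa part only in the 3 lenvatinib libraries.

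Genes that mature, bind or present PDGFs were counted next. Of 12 genes 10 were tested, of which 6 rose, 1 fell and 3 did not pass, with a median log2 fold change of 0.17 beside 0.00 over all rows (0.0027). The counts of this and the following lists stand beside 13.3% of all rows tested called higher and 14.9% called lower, and nothing particular to a list is read from them. Plat encodes tissue plasminogen activator, the protease that removes the CUB domain of PDGF-C, and was at 44.9, 43.5 and 47.3 CPM without and 116.5, 121.5 and 117 CPM with the drug. That is a rise of 1.39 ± 0.04 (adjusted p = 1.65e-28), with no overlap. Sparc, a matrix protein that binds the B chain, rose by 0.43 to 3088 ± 40.8 CPM, and the proprotein convertase gene Pcsk6 rose by 1.13 from a low 3.97 ± 0.376 CPM (SD, n = 3). Smaller rises were seen in Plau, the urokinase gene (0.17), and the convertase gene Pcsk7 (0.16). Nrp1, a co-receptor, was the member that fell, by 0.28 on the log2 scale to 62.9 ± 2.8 CPM (SD, n = 3). Without the third untreated library 2 members fell in place of 1. The convertase gene Furin was at 187 ± 5.28 and 178 ± 1.04 CPM and did not pass (adjusted p = 0.0669).

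Among genes for the relay proteins downstream of the activated receptors, most did not pass the test. The 34 genes, all tested, gave 8 rises, 6 falls and 20 that missed the threshold (median 0.04). Rasa1, which encodes a RAS GTPase-activating protein that docks on the beta receptor, fell most, from 204.9, 197 and 203.5 CPM to 126, 133 and 124.5 CPM (-0.66 ± 0.03, adjusted p = 8.04e-21). The adaptor gene Shc1 (-0.33), the transcription factor gene Stat3 (-0.24) and the phosphoinositide 3-kinase subunit gene Pik3r1 (-0.23) also fell, each without overlap. The rises with the smallest p were in Akt2 (0.18), Pik3r2 (0.21), Akt1 (0.11) and Nras (0.10), all below 1.2-fold. The largest called rise was in Grb10, an adaptor gene named after its values were seen, at 0.56 ± 0.21 (adjusted p = 0.0391) from a low 1.46 ± 0.2 to 2.14 ± 0.195 CPM (SD, n = 3), without overlap. The number of rises was sensitive: it was 5 without the second untreated library, 4 without the first lenvatinib library, 4 with DESeq2 and 3 at a threshold of 0.01.

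Of 16 tested genes whose products end receptor signals, 5 fell, 11 did not pass and 0 rose in edgeR's quasi-likelihood test, with a median of -0.08. The share called was near the 28.2% of all rows tested that were called in either direction. The 5 calls of this list were falls, beside 14.9% of all rows tested called lower and 13.3% called higher. At an unadjusted p under 0.05 the counts were 7 lower and 0 higher, beside 2853 lower and 2709 higher among all 14989 rows tested. DESeq2 and limma-voom, run on the same counts and so not separate evidence, also called 0 higher. With only 16 genes tested, no direction of the list as a whole is read from these counts. Sh3kbp1, an adaptor that helps the CBL ubiquitin ligases take receptors into the cell, fell from 83.97 ± 1.9 to 62.9 ± 2.16 CPM (SD, n = 3; -0.42 ± 0.04, adjusted p = 8.66e-12). Its relative Cd2ap (-0.24), the signal inhibitor Socs3 (-0.33), the receptor-binding protein Lrig1 (-0.23) and the phosphatase gene Ptpn12 (-0.17) fell with it. The ligase genes themselves, Cbl and Cblb, did not pass (adjusted p = 0.33 and 0.254).

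Transcripts that PDGF and serum are known to induce went both ways. In this list of 23, all tested, 8 fell and 4 rose, with 11 short of the threshold and a median of -0.11. The chemokine genes Ccl7 and Ccl2, among the classic PDGF-induced genes of fibroblasts, fell by 2.23 and 1.24 on the log2 scale, though from low levels of 4.43 ± 0.568 and 2.54 ± 0.402 CPM (SD, n = 3). Cxcl1, also a chemokine gene of the list, was at 0.51 CPM in both groups and did not pass (-0.01, adjusted p = 0.9875). Junb fell by 0.36 and the hyaluronan synthase gene Has2 by 0.27. Hbegf, which encodes a ligand of the EGF receptor, rose from 29.05 ± 1.03 to 48.5 ± 1.28 CPM (SD, n = 3; 0.74 ± 0.05, adjusted p = 1.14e-15), and Jun (0.45), Ccnd1 (0.22) and Dusp1 (0.23) rose too. Fos and Egr1 did not pass (adjusted p = 0.942 and 0.597).

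**Figure D4:**
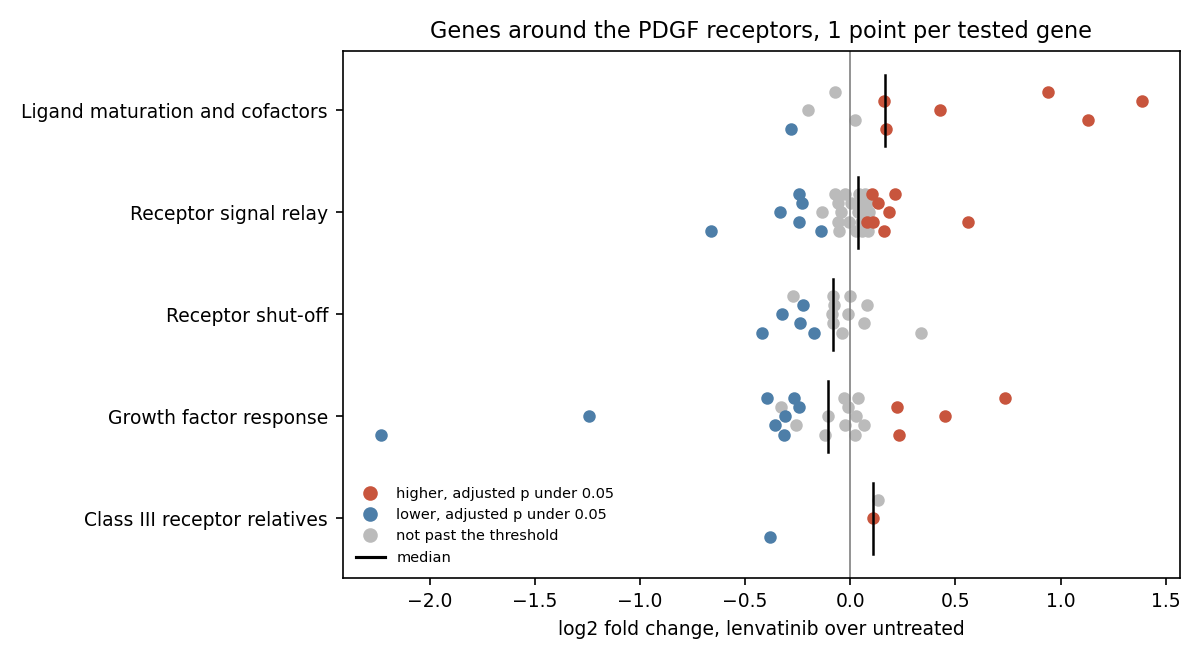
Log2 fold change (x axis) of each tested gene in 5 lists around the PDGF receptors (rows); red points are higher, blue points lower and grey points not past an adjusted p of 0.05, and the black line is the median. Plat at 1.39 is the point farthest to the right, Ccl7 at -2.23 the point farthest to the left, and no gene of the shut-off list is red.

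The nearest kin of the PDGF receptors are the other class III receptor tyrosine kinases. Kit and Flt3 were listed at 0 in all 6 libraries, where 3 counts correspond to 0.0926 to 0.122 CPM, and Csf1r was at 0.0826 ± 0.111 and 0.0748 ± 0.0113 CPM (SD, n = 3). None of these 3 could be tested, whereas both PDGF receptors could. Such a floor covers counting error only, and a 0 in the table does not show that the transcript is missing. Of their 4 ligand genes Kitl fell by 0.38, Csf1 rose by 0.11, Il34 did not pass (adjusted p = 0.23) and Flt3l was too low to test.

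The genes whose log2 CPM followed a member most closely over the 6 libraries were sought among 10050 named rows of at least 5 CPM. For Pdgfra they were Dmd (Pearson r = 0.998), which encodes dystrophin, the interleukin 1 receptor gene Il1r1 (0.997) and Hint3 (0.996). Dmd fell by 0.68, Il1r1 by 0.27, and Hint3, at 17.95 ± 0.381 and 16.7 ± 0.203 CPM (SD, n = 3), did not pass (adjusted p = 0.255). For Pdgfrl, the member with the smallest p, they were Bmper (0.999), Ppp1r15a (0.998) and Tmem43 (0.998), which rose by 0.13, 0.19 and 0.31. The 6 points are 2 groups of 3, and the values describe these libraries, without a test.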

How the data were processed

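RNA sequencing counts of 6 libraries, 3 per group, were used as the authors deposited them, as raw counts per gene row without normalization. Group and number came from the titles, and columns were matched by name. Per the labels' protocols reads were aligned with Hisat2 2.0.1, and the submitters' processing notes name HTSeq 0.6.1 and the build mm10; the positions in the table differ from those of mm10 and are printed as deposited, without a build. A deposited feature length in bases (unit other) gave the values per kilobase. No source used here gives the library preparation, the read filters or the strand setting.

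The whole table was fitted with edgeR 4.0.16 in R 4.3.3 (TMM factors, filterByExpr with a minimum count of 10 and total of 15, robust quasi-likelihood fit, glmQLFTest). A row was called at an adjusted p under 0.05 over 14989 rows. The fit gave a biological coefficient of variation of 3.6%, and intervals are at 95%. CPM and log2 fold changes were computed here. The fit was tested on simulated counts. Ratios and shares were tested by exact permutation with scipy 1.17.1. Within each group no library was a copy of another (chi-square per degree of freedom 2.78 to 5.6). Libraries of different groups were not compared in this way.

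The members and lists were chosen with earlier results of these data known. Named were all members, and up to 4 called genes per list and direction with the smallest p. Also named were the 3 genes closest to Pdgfra and to the member with the smallest p, and the top markers. Genes named for their role after their values were seen were Furin, Cbl, Cblb, Fos, Egr1, Cxcl1, Flt3l and Il34. Mcam and other marker genes, Plau, Pcsk7, Grb10 and Ptpn12 were named in this way too. A called gene of the maturation list is counted but not reported here by name. Alternatives were other scalings, filters, a stricter threshold, DESeq2 1.42.0, limma-voom (limma 3.58.1), a replicate block and leaving out each library. Promoter sequences are from RefSeq on GRCm38.p6, and those of Pdgfra and Pdgfc are printed. Those of Pdgfa and Pdgfd were searched for the same motifs and not printed.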

Additional observations from a re-analysis of the deposited data

How the results depend on the processing

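The calls of Pdgfra, Pdgfrb, Pdgfrl, Pdgfb and Pdgfc kept their direction and stayed past the threshold in all 15 alternatives, with log2 fold changes of -0.45 to -0.36, 0.14 to 0.18, 0.59 to 0.65, 0.45 to 0.52 and 0.46 to 0.50. The number of higher members was 4 in each. The number of lower members was 1 with DESeq2 and 1 at a threshold of 0.01, and 1 to 2 when each library was left out in turn; in each case the call lost was Pdgfa. Pdgfd, not called, ranged from -0.0549 to 0.058 when libraries were left out, and was -0.0549 without the first untreated and -0.0384 without the third lenvatinib library. In the maturation list 2 members fell with a filter of 5 CPM, 2 with limma-voom and 2 without robust estimation (1 to 2 leaving out libraries). In the relay list 4 rose with DESeq2 and 3 at a threshold of 0.01 (4 to 6 leaving out libraries). The causes were not tested. Same-numbered libraries did not deviate together (r = 0.0217, -0.0782 and -0.0042 over 10002 genes), so the numbers were not taken as pairs. With the replicate number as a block, 4 members rose and 2 fell, and the difference of the receptor ratio was -0.57 (exact sign-flip p = 0.25, the smallest possible with 3 pairs). Leaving out libraries, that difference was -0.61 to -0.51, and the 4 ligand shares kept their direction in all 8 alternatives. Their sizes moved on raw counts without length, to differences of -6.85 (Pdgfa), 2.38 (Pdgfb), 6.25 (Pdgfc) and -1.78 (Pdgfd) percentage points. Counts of 284 to 557 per library limit the precision for Pdgfra and Pdgfd.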
